A study of Mus musculus with 24 samples.

Results

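Livers of Mdr2-/- mice were set against livers of wild-type mice in animals that had been given no oncogene and bore no tumour. The libraries were chosen by their treatment label and are 12 of the 24 RNA sequencing libraries of the series: 6 labelled Ctrl.Mdr2-/- and 6 labelled Ctrl.Wild-type. Both groups had undergone an empty transduction, that is, the transposon procedure without the oncogenes. The other 12 libraries came from tumour-bearing livers of the same 2 genotypes after transduction with AKT and YAP1, a procedure that gives rise to cholangiocarcinoma, and they served to estimate the spread between libraries and to ask whether the genotype effect differed in the presence of a tumour. The labels give no strain or age and do not say whether the Mdr2-/- mice and the wild-type mice were littermates, so such a difference cannot be told apart from the genotype. They give no sex either, but the levels of Xist and of Y-linked genes, given below, were those of female livers in all 12 libraries. They speak of individual tissues but not of separate animals, so the p-values reflect the spread among these libraries and not necessarily that among mice.

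Mdr2, whose gene is Abcb4, sits in the canalicular membrane of the hepatocyte and moves phosphatidylcholine into bile. There the phospholipid forms mixed micelles with bile acids and so protects the duct lining from their detergent action. Mice without it secrete bile that is almost free of phospholipid, and are used as a model of sclerosing cholangitis, with proliferation of bile ductules, scarring around the ducts and inflammation of the portal tracts. In such a liver, gene expression in whole tissue can change because cells change or because the mix of cells changes. In these bulk samples, fewer cells of a type and less RNA per cell cannot be told apart.

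Total counts were 20976459 to 28416901 per library in wild-type livers and 26974376 to 30053571 in Mdr2-/- livers. Levels are given as CPM, counts per 1000000 after TMM scaling, a scaling that assumes that most genes do not change, and 1 CPM rested on 16.4 to 29.96 counts in these 12 libraries. The first principal component of log2 CPM held 53.9% of the variance of the 12 libraries and separated the genotypes, with -83.7 to -36.1 in wild type and 45.2 to 77.1 in Mdr2-/-. Y-linked genes were at 0.639 CPM or less in all 12 libraries, and Xist, the RNA that silences an X chromosome in females, was at 1034 to 2325 CPM in wild type and 548.5 to 805 CPM in Mdr2-/-. Genes encoded by mitochondrial DNA took 7.57 ± 1.06% of the counts in wild type and 4.34 ± 0.409% in Mdr2-/- (SD, n = 6 each, exact permutation p = 0.00216, adjusted p = 0.00649 over 6 classes of genes). Ckm, Myh4, Acta1, Tnnt3 and Myh1, genes of skeletal muscle, summed to 117 CPM or more in 18 of the 24 libraries and to 2.07 CPM or less in the other 6, among them 2 wild-type and 2 Mdr2-/- controls. With the summed level as a covariate, an alternative added after seeing the data, 8546 genes were called for genotype in controls. Genes past the test at an adjusted p under 0.05 (50.5% of all genes) were also counted among markers of other cells that a piece of liver could carry. These were red cells (0 up and 2 down of 5 genes, the haemoglobin genes and Alas2), mesothelium (2 and 1 of 5), fat (0 and 0 of 2) and pancreas (0 and 1 of 2).

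Abcb4 (ENSMUSG00000042476) was at 244 to 377 CPM (median 274) in wild-type livers and at 23.8 to 41.6 CPM (median 31.3) in Mdr2-/- livers, a difference of -3.13 ± 0.23 on the log2 scale (± SE, edgeR adjusted p = 2.43e-10). All Mdr2-/- libraries were lower than any wild-type library, and reads were still counted in the gene in all 6 of them. The labels do not say which part of the gene was deleted. Its neighbour on the chromosome, Abcb1b, 1 of the 2 mouse genes for the drug efflux pump P-glycoprotein, went from 0.767 to 2.01 CPM (median 1.42) to 19.4 to 46.9 CPM (median 24.2) (4.27 ± 0.29, edgeR adjusted p = 8.8e-11). The libraries of the 2 genotypes did not overlap for Abcb1b. Abcb1a, the other P-glycoprotein gene and the next along the same chromosome, was at 14.2 to 58 CPM (median 29.5) and 37.5 to 57.7 CPM (median 52.6) in the same order (0.62 ± 0.27, edgeR adjusted p = 0.0568), and its groups overlapped. Abcb1a passed without wild-type replicate 2 or 6 (0.78 and 0.86, adjusted p = 0.0228 and 0.00932) and without Mdr2-/- replicate 5 (0.70, adjusted p = 0.044). On the other side of Abcb4 lies Crot, a peroxisomal enzyme that hands shortened fatty acids on to carnitine, with 713 to 1781 CPM (median 1219) in wild type and 303 to 612 CPM (median 425) in Mdr2-/- (-1.44 ± 0.24, edgeR adjusted p = 3.88e-05). Gene order is from RefSeq GRCm38.p6, which is not the assembly of the counts.

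**Figure D1:**
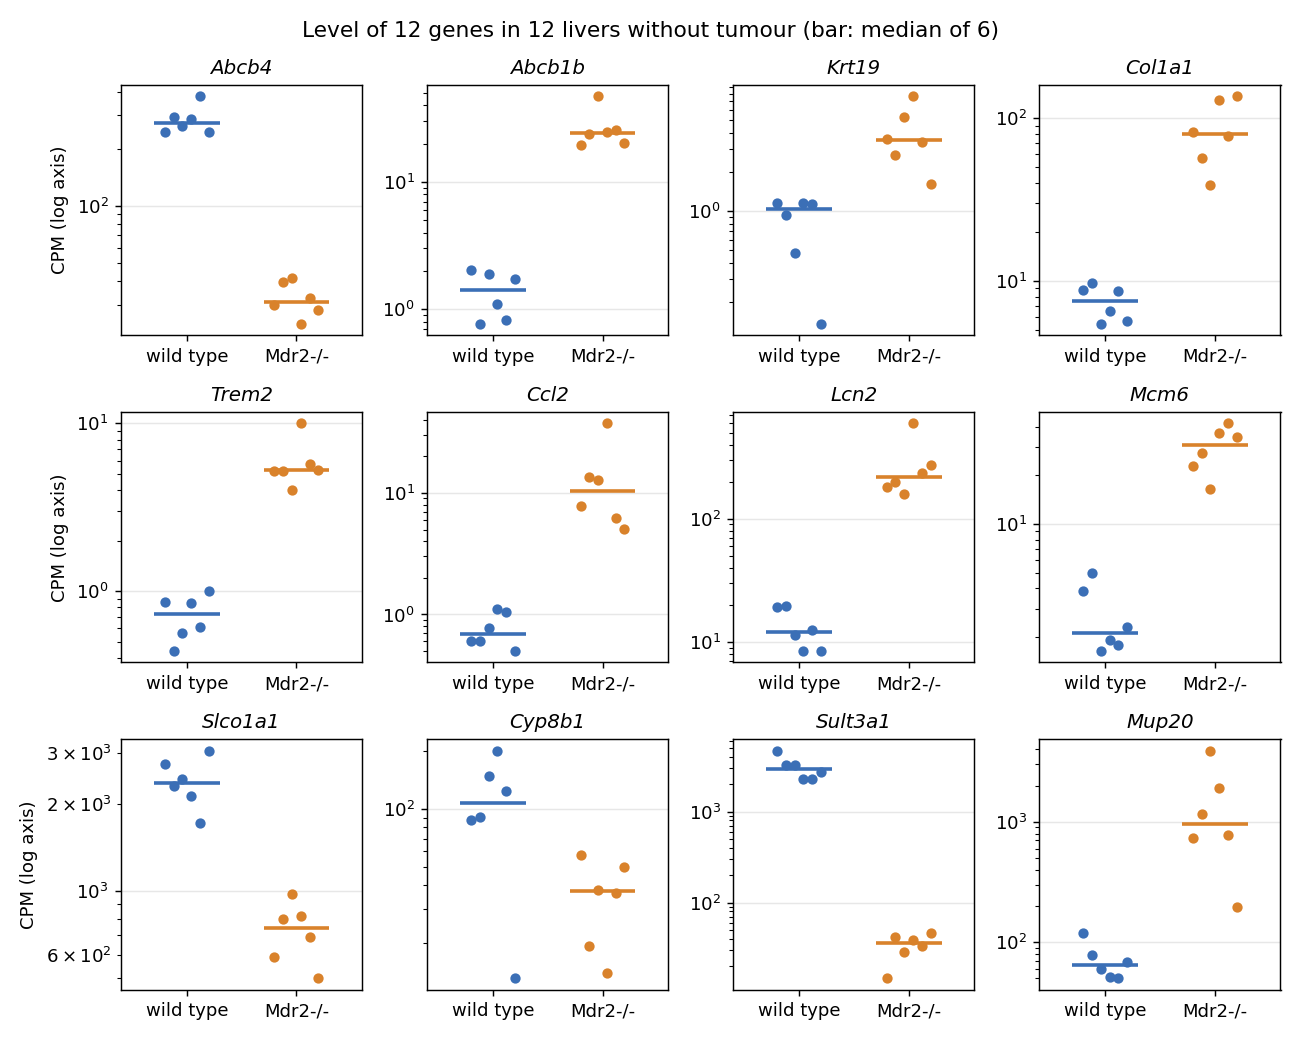
Level of 12 genes in each of the 12 control livers, in CPM on a log axis, with wild-type libraries in blue and Mdr2-/- libraries in orange, and the median of each group as a bar. The groups are apart for all 12 genes except Cyp8b1, for which wild-type points lie at 13.1 to 201 CPM and Mdr2-/- points at 14 to 57.7 CPM.

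Of 17216 genes tested, 8690 (50.5%) passed an edgeR quasi-likelihood test at an adjusted p under 0.05 (called, from here on). Of these, 4512 were higher in Mdr2-/- livers (26.2% of genes tested) and 4178 were lower (24.3%). A change of at least 2-fold was found in 1930 of the former (11.2%) and 1992 of the latter (11.6%), and the 6 libraries of each genotype did not overlap for 4186 genes (24.3%). Every count of a gene group below is to be read against these shares. The balance between rises and falls depends on the scaling: 51.9% of the calls were rises after TMM scaling, 75.7% when libraries were scaled to their total counts, and 83.6% when limma was run on log2(TPM + 1) of the authors' TPM. Relative to TMM these shifted the median log2 change over all genes by 0.30 and 0.41, so falls of that size or less, and rises of groups with small changes, are relative to the scaling.

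**Figure D2:**
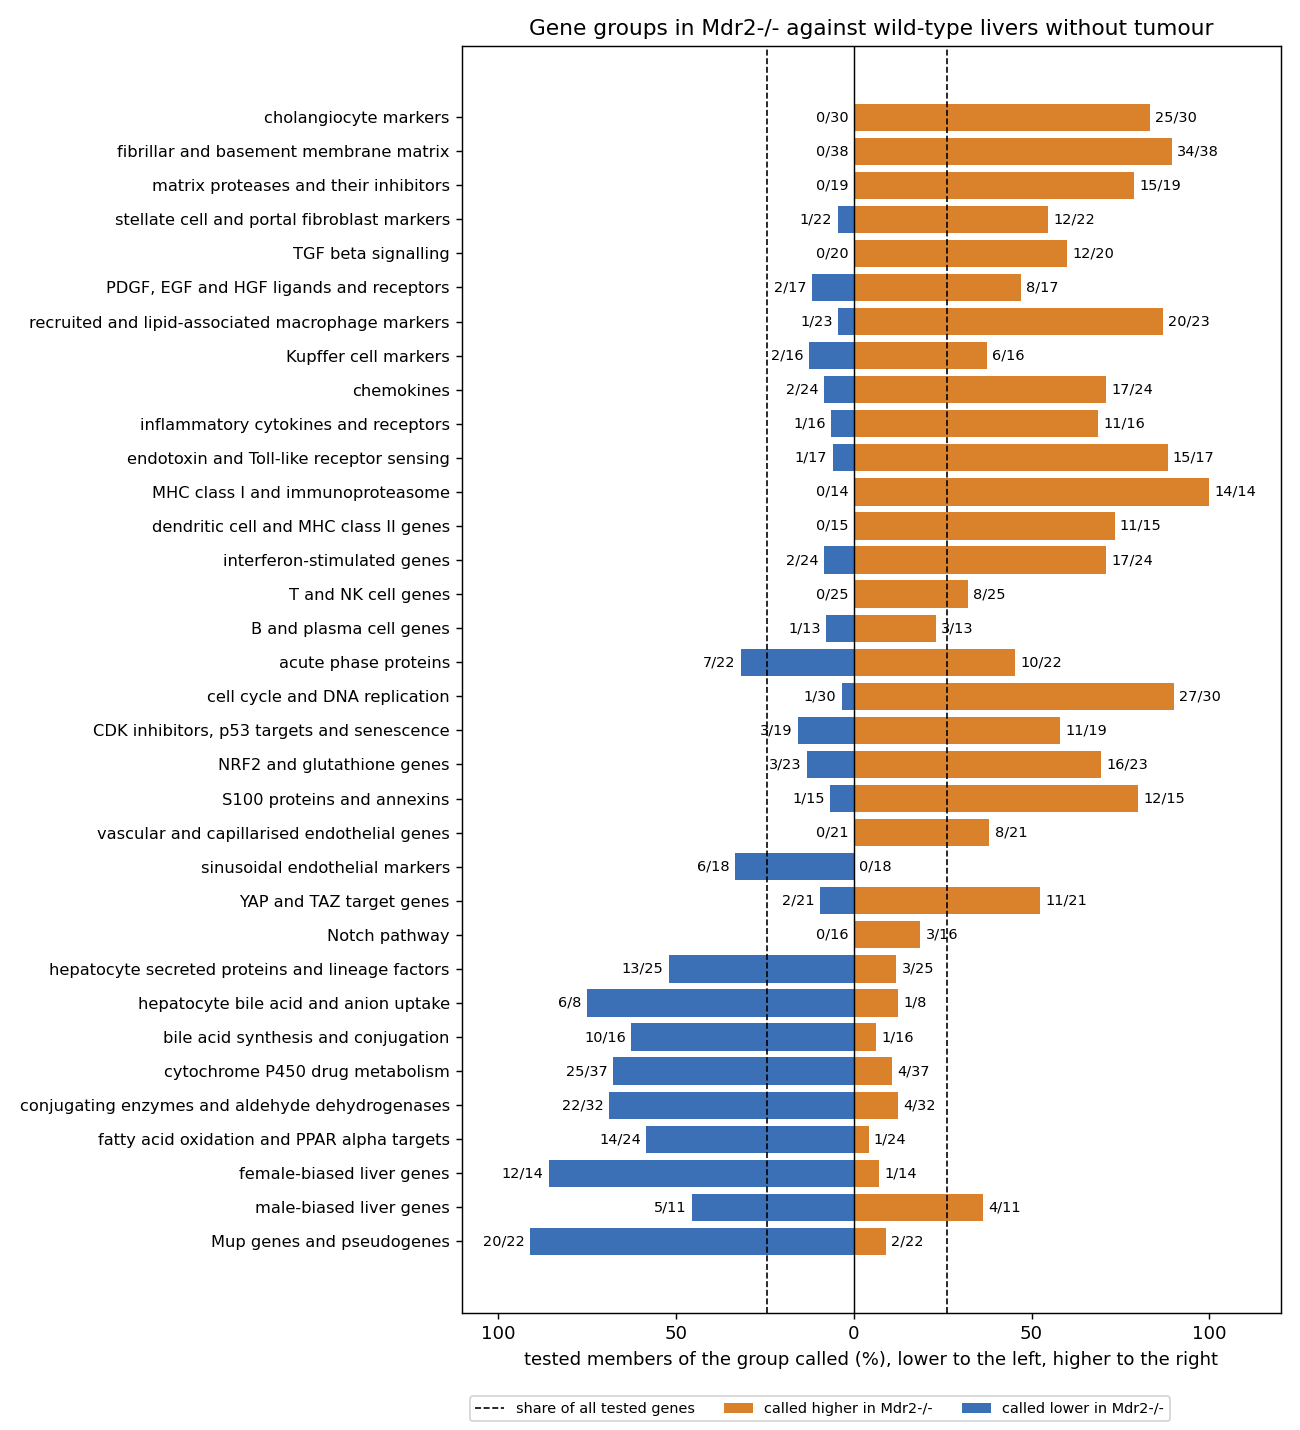
Share of the tested members of 34 gene groups that were called higher (right, orange) or lower (left, blue) in Mdr2-/- than in wild-type control livers, in percent, with the number called and the number tested beside each bar. Dashed lines mark the share of all tested genes, 26.2% higher and 24.3% lower.

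Genes of the duct lining were higher in Mdr2-/- livers. Of 30 tested markers of cholangiocytes, the cells that line the bile ducts, 25 were called higher and 0 lower, with a median log2 fold change of 1.76 against 0.03 for all genes. Krt19, a keratin of duct cells, was at 0.136 to 1.16 CPM (median 1.03) in wild type and 1.62 to 7.61 CPM (median 3.51) in Mdr2-/- (2.29 ± 0.59, edgeR adjusted p = 0.00273), and Krt7, its partner keratin, at 0.454 to 1.48 CPM (median 0.715) and 1.52 to 8.88 CPM (median 2.54) (2.04 ± 0.56, adjusted p = 0.00407). Neither keratin had overlapping groups. Epcam, a surface adhesion protein of duct cells and progenitors, rose from 1.05 to 1.87 CPM (median 1.46) to 3.13 to 19.9 CPM (median 6.34) (2.49 ± 0.44, edgeR adjusted p = 6.37e-05). Cftr, the chloride channel that drives the secretion of duct fluid, rose by 3.34 ± 0.76 (edgeR adjusted p = 0.000932), from 0.182 to 0.931 CPM (median 0.303) to 1.55 to 11.5 CPM (median 2.91). The largest rises in the list were those of Cldn4, a claudin of tight junctions, from 0.0852 to 0.349 CPM (median 0.1) to 2.64 to 10.2 CPM (median 3.85) (4.82 ± 0.54, edgeR adjusted p = 1.49e-07), and of Elf3, an epithelial transcription factor, from 0.681 to 1.7 CPM (median 1.04) to 12.2 to 33.8 CPM (median 16.5) (4.07 ± 0.39, adjusted p = 1.6e-08). All 4 of these genes were higher in each Mdr2-/- library than in any wild-type library.

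Other duct markers moved less. Sox9, a transcription factor of duct cells and of hepatocytes that take on duct features, was at 4.95 to 8.55 CPM (median 6.5) in wild type and 7.66 to 26.7 CPM (median 11.2) in Mdr2-/- (1.12 ± 0.34, edgeR adjusted p = 0.00848), with overlapping groups. Spp1, the secreted phosphoprotein osteopontin, was at 40.1 to 119 CPM (median 58.2) in wild type and 40 to 251 CPM (median 92.8) in Mdr2-/- (0.63 ± 0.47, edgeR adjusted p = 0.275). Aqp1, a water channel of duct and endothelial cells, was at 114 to 169 CPM (median 158) and 146 to 170.2 CPM (median 156) (0.05 ± 0.11, adjusted p = 0.721). Neither of the last pair passed the test, although both are classed with the duct genes. Notch signalling, which specifies ducts in the embryo, showed 3 rises and 0 falls among 16 tested genes, and 8 rises with total counts or on the TPM. Targets of YAP and TAZ, transcriptional co-activators that are active in regenerating duct cells, rose for 11 of 21 with 2 falls. Among them Ctgf, a matricellular growth factor, was at 6.54 to 14.5 CPM (median 11.1) in wild type and 10.1 to 59.8 CPM (median 21.9) in Mdr2-/- (1.31 ± 0.35, edgeR adjusted p = 0.00369), with overlapping groups.

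Scar tissue genes rose together. Of 38 tested genes of fibrillar and basement membrane matrix, 34 were called higher and 0 lower, with a median of 1.89. Col1a1, a chain of type I collagen, the main fibre of scars, went from 5.42 to 9.64 CPM (median 7.53) to 38.7 to 137 CPM (median 80.4) (3.56 ± 0.39, edgeR adjusted p = 1.07e-07). Col3a1, the chain of type III collagen, went from 38.2 to 73.8 CPM (median 53.8) to 164 to 484 CPM (median 213) (2.18 ± 0.26, adjusted p = 5.08e-07). Col4a1, a basement membrane collagen, went from 23.4 to 39.3 CPM (median 26.1) to 89 to 145 CPM (median 113) (2.00 ± 0.23, adjusted p = 3.03e-07). No wild-type library reached the lowest Mdr2-/- library for any of these collagens. Loxl1, an enzyme that crosslinks elastin and collagen, rose by 2.91 ± 0.37 (edgeR adjusted p = 9.61e-07). Fn1, fibronectin, which hepatocytes secrete into plasma, was the exception among the abundant members, with 1896 to 4495 CPM (median 2817) in wild type and 1859 to 3969.5 CPM (median 2226) in Mdr2-/- (-0.14 ± 0.27, edgeR adjusted p = 0.691).

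Enzymes that remodel matrix followed, with 15 of 19 tested proteases and inhibitors called higher, none lower, and a median of 2.21. Timp1, an inhibitor of matrix metalloproteases that is often used as a marker of fibrosis, was at 0.129 to 0.603 CPM (median 0.312) in wild type and 2.49 to 8.72 CPM (median 2.73) in Mdr2-/- (3.33 ± 0.50, edgeR adjusted p = 9e-06). Mmp12, the elastase of macrophages, was at 0.733 to 3.29 CPM (median 1.8) and 22 to 44.1 CPM (median 31.4) (4.08 ± 0.34, adjusted p = 1.31e-09), and Mmp13, a collagenase, at 0.0611 to 0.262 CPM (median 0.133) and 1.1 to 2.34 CPM (median 2.12) (3.56 ± 0.35, adjusted p = 2.24e-08). The groups were apart for all 3 genes.

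The cells known to make this matrix gave a mixed picture. Of 22 tested markers of hepatic stellate cells and portal fibroblasts, 12 rose and 1 fell. Entpd2, an ectonucleotidase of portal fibroblasts, rose from 1.97 to 2.87 CPM (median 2.32) to 10.7 to 18.2 CPM (median 14.6) (2.55 ± 0.18, edgeR adjusted p = 1.1e-10). Cygb, a globin of stellate cells, rose from 4.59 to 6.3 CPM (median 5.41) to 23.8 to 46.1 CPM (median 32) (2.56 ± 0.20, adjusted p = 5.94e-10), and Pdgfrb, the receptor for PDGF on both cell types, from 9.04 to 18 CPM (median 12.1) to 35.1 to 83.4 CPM (median 50.9) (2.06 ± 0.23, adjusted p = 1.29e-07). These 3 genes had groups without overlap. In contrast, Acta2, the smooth muscle actin that marks contractile myofibroblasts, was at 0.772 to 3.49 CPM (median 1.68) in wild type and 1.31 to 2.99 CPM (median 1.85) in Mdr2-/- (0.10 ± 0.51, edgeR adjusted p = 0.88). Des, the intermediate filament desmin of stellate and muscle cells, was at 3.49 to 18.9 CPM (median 11.6) and 5.85 to 15.3 CPM (median 12.4) (0.04 ± 0.34, adjusted p = 0.928), and Lrat, which stores vitamin A in quiescent stellate cells, at 45.4 to 102 CPM (median 78) and 46.9 to 64.2 CPM (median 55.1) (-0.48 ± 0.21, adjusted p = 0.0581). None of the last 3 passed the test, and their groups overlapped. Lrat passed without wild-type replicate 2 (-0.58, adjusted p = 0.0249). It was also called lower by DESeq2 (adjusted p = 0.0441). The edgeR fit of the 12 controls alone and that with upper-quartile factors called it too (adjusted p = 0.0225 and 0.0387). So did those with a stricter low-count filter, without mitochondrial and haemoglobin genes, and without the 2 tumour-bearing libraries least like their groups. With total counts and on the TPM it was not called. Des is also a gene of skeletal muscle, whose RNA was found in 8 of the 12 libraries, and its part in the Des level was not tested.

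Growth factors that act on these cells were also measured. Of 20 tested genes of TGF beta signalling, 12 rose and 0 fell. Tgfb1, the ligand best known for driving matrix production, rose from 8 to 10.5 CPM (median 9.26) to 16.9 to 22.6 CPM (median 19.6) (1.10 ± 0.13, edgeR adjusted p = 6.15e-07). Tgfb2, a ligand made by duct cells, rose from 0.947 to 2.08 CPM (median 1.55) to 4.95 to 16.2 CPM (median 5.88) (2.28 ± 0.44, adjusted p = 0.000193). Itgb6, the epithelial integrin chain that activates latent TGF beta, rose from 0.0852 to 0.5 CPM (median 0.266) to 1.34 to 7.65 CPM (median 1.94) (3.41 ± 0.47, adjusted p = 3.44e-06). For all 3 the Mdr2-/- libraries lay above the wild-type libraries. Among ligands and receptors of PDGF, EGF and HGF, 8 of 17 rose and 2 fell. Pdgfa and Pdgfb, ligands that attract stellate cells, rose by 2.40 ± 0.19 (edgeR adjusted p = 5.22e-10) and 2.56 ± 0.40 (adjusted p = 1.56e-05), and Btc, a ligand of the EGF receptor, by 2.87 ± 0.24 (adjusted p = 1.6e-09).

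Macrophage genes were described by origin. Of 23 tested markers of macrophages that arrive from the blood or take up lipid, 20 rose and 1 fell, with a median of 1.90. Ccr2, the receptor by which monocytes follow Ccl2 into tissue, rose from 1.79 to 4.5 CPM (median 2.86) to 13.8 to 31.8 CPM (median 15.3) (2.60 ± 0.28, edgeR adjusted p = 1.13e-07). Trem2, a lipid-sensing receptor of scar-associated macrophages, rose from 0.438 to 0.999 CPM (median 0.731) to 4.01 to 9.99 CPM (median 5.24) (3.03 ± 0.32, adjusted p = 6.19e-08). Ms4a7, a membrane protein of monocyte-derived macrophages, rose from 0.17 to 0.611 CPM (median 0.411) to 3.51 to 11.2 CPM (median 4.64) (3.82 ± 0.52, adjusted p = 2.66e-06). None of these 3 had overlapping groups. Resident Kupffer cells were represented by 16 tested genes, of which 6 rose and 2 fell, against 9 rises and 2 falls with total counts. C6, a complement gene counted in this list, was among the rises (3.33 ± 0.27, edgeR adjusted p = 1e-09). The falls were those of Cd163 and of Slc40a1, the iron exporter (-0.86 ± 0.16, adjusted p = 0.000167). Clec4f, the lectin most particular to mouse Kupffer cells, was at 121 to 178 CPM (median 161) in wild type and 97.1 to 198 CPM (median 157) in Mdr2-/- (-0.03 ± 0.23, edgeR adjusted p = 0.922). Cd163, the scavenger receptor for haemoglobin bound to haptoglobin, fell from 8.72 to 17.5 CPM (median 11.3) to 1.26 to 5.11 CPM (median 2.54) (-2.09 ± 0.34, adjusted p = 3.09e-05), with groups apart.

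Chemokines, the proteins that call leukocytes into tissue, rose for 17 of 24 tested genes and fell for 2. Ccl2, which attracts monocytes, went from 0.5 to 1.11 CPM (median 0.693) to 5.1 to 37.3 CPM (median 10.3) (4.13 ± 0.50, edgeR adjusted p = 6.18e-07). Ccl20, which attracts cells that bear Ccr6 and is made by inflamed duct lining, went from 0.0436 to 0.366 CPM (median 0.152) to 0.751 to 13.2 CPM (median 1.76) (4.32 ± 0.77, adjusted p = 7.09e-05). Cxcl2, an attractant of neutrophils, went from 0 to 0.219 CPM (median 0.0736) to 0.316 to 1.26 CPM (median 0.768) (3.16 ± 0.47, adjusted p = 9.43e-06). The groups did not overlap for these 3, and 1 Mdr2-/- library, replicate 4, held the highest Ccl2 and Ccl20 levels. Genes that sense endotoxin and other bacterial products, or act in the signalling that follows, rose for 15 of 17 tested and fell for 1. The list also holds genes of NF kappa B signalling, among them Tnfaip3, Nfkbia and Nfkb2. Cd14, the co-receptor for endotoxin, rose from 2.54 to 4.6 CPM (median 3.73) to 17.7 to 48.7 CPM (median 23.7) (2.96 ± 0.37, edgeR adjusted p = 7.75e-07), and Tlr2, a receptor for bacterial lipoproteins, from 2.92 to 4.22 CPM (median 3.71) to 16.8 to 28.4 CPM (median 21.2) (2.58 ± 0.18, adjusted p = 1.1e-10). Tlr4, the endotoxin receptor itself, was at 7.2 to 15.8 CPM (median 10.8) in wild type and 6.61 to 13.8 CPM (median 10.7) in Mdr2-/- (-0.16 ± 0.21, adjusted p = 0.533) and did not pass the test. Tnfaip3, the deubiquitinase A20 that limits NF kappa B signalling, rose from 2.98 to 5.19 CPM (median 4.08) to 15.6 to 44.1 CPM (median 26.8) (2.89 ± 0.23, adjusted p = 5.92e-10).

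Because several chemokine genes and Tnfaip3 are textbook targets of NF kappa B, their promoters were searched for its core letters, GGGNN followed by TTTCC or TTCCC on either strand, where N is any base and matches may overlap. In the 300 bases around the start of a gene (250 before and 50 after, RefSeq, GRCm38.p6), at least 1 match was found for 6 of the 17 chemokine genes with a promoter in the table (35.3%), for 4 of 11 genes of endotoxin sensing (36.4%), and for 4.36% of the 11969 tested genes with a promoter (3.24% of all 32851 promoters). Below are the 250 bases before the start of 3 of the genes that rose, with the matches in capitals. Ccl20 lies on the + strand (chr1:83116516-83116765), Cxcl2 on the + strand (chr5:90903649-90903898) and Tnfaip3 on the - strand (chr10:19015411-19015660), and all are written 5′ to 3′ along the gene.
Ccl20: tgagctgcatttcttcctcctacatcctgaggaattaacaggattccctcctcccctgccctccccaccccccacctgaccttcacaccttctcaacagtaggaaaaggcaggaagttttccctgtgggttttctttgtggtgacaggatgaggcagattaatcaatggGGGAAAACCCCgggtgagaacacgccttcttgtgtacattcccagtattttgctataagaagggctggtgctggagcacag
Cxcl2: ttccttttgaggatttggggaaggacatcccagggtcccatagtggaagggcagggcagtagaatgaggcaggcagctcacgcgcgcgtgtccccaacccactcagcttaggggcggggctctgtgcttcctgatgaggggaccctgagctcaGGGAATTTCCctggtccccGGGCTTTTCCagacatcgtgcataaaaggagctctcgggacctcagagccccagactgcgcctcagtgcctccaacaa
Tnfaip3: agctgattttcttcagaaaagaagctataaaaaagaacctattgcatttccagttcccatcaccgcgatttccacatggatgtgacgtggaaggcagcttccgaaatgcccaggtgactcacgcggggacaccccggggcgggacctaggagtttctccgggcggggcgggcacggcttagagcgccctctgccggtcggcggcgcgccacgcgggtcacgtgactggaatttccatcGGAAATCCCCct
The 2 matches in Ccl20 overlap by all but 1 base and begin 81 and 80 bases before the start. Those in Cxcl2 begin 97 and 78 bases before it, and the match in Tnfaip3 begins 12 bases before it. The 4 genes of the endotoxin sensing list with a match were Tlr2, Tnfaip3, Nfkbia and Nfkb2, most of them genes of NF kappa B signalling itself. A match is a description of the letters and does not show that the factor binds there.

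Cytokine genes rose for 11 of 16 tested and fell for 1. Lif, a cytokine of the interleukin 6 family, was at 0 to 0.219 CPM (median 0.111) in wild type and 0.686 to 1.65 CPM (median 0.994) in Mdr2-/- (3.19 ± 0.52, edgeR adjusted p = 2.8e-05). Tnfrsf12a, the receptor for TWEAK, a signal known to expand duct progenitors, rose from 4.13 to 7.62 CPM (median 5.38) to 14.5 to 48.3 CPM (median 28.5) (2.41 ± 0.32, adjusted p = 1.66e-06). Both were higher in all Mdr2-/- livers than in any wild-type liver. Antigen presentation rose as well, with 14 of 14 tested genes of MHC class I and the immunoproteasome and 11 of 15 genes of dendritic cells and MHC class II called higher and none lower. Cd74, the chaperone of MHC class II, went from 79.1 to 131 CPM (median 94.7) to 267 to 341 CPM (median 301) (1.58 ± 0.25, edgeR adjusted p = 1.65e-05), and H2-K1, a class I heavy chain, from 219 to 295 CPM (median 258) to 450.3 to 515 CPM (median 489) (0.92 ± 0.13, adjusted p = 3.86e-06). Interferon-stimulated genes rose for 17 of 24 and fell for 2. Irf7, a transcription factor of the interferon response, rose from 6.09 to 8.35 CPM (median 7.24) to 20.6 to 34.7 CPM (median 22.9) (1.75 ± 0.17, adjusted p = 1.22e-08), also with groups apart.

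Lymphocyte and neutrophil markers were measured too. Of 25 tested genes of T and NK cells, 8 rose, close to the background share of rises (26.2%). In the same list 0 fell, against 24.3% of all genes. Cd8a, a chain of the co-receptor of cytotoxic T cells, was at 0.43 to 1.61 CPM (median 0.623) in wild type and 0.938 to 6.9 CPM (median 1.37) in Mdr2-/- (1.76 ± 0.53, edgeR adjusted p = 0.00811), with overlapping groups. Cd4, the co-receptor of helper T cells, was at 1.5 to 2.07 CPM (median 1.94) and 1.1 to 2.89 CPM (median 2.35) (0.32 ± 0.26, adjusted p = 0.318). Of 13 tested genes of B and plasma cells, 3 rose and 1 fell. Igha, the heavy chain of immunoglobulin A, rose from 0.329 to 0.954 CPM (median 0.468) to 1.04 to 2.29 CPM (median 1.91) (1.71 ± 0.43, edgeR adjusted p = 0.00225), with groups apart. Only 7 of 13 neutrophil markers were high enough to be tested, and 3 of them rose. S100a8, an abundant neutrophil protein, was at 0.855 to 2.19 CPM (median 1.42) in wild type and 0.738 to 3.4 CPM (median 1.98) in Mdr2-/- (0.54 ± 0.30, edgeR adjusted p = 0.135), and did not pass. S100a8 passed without Mdr2-/- replicate 6 (0.72, adjusted p = 0.0321).

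**Figure D3:**
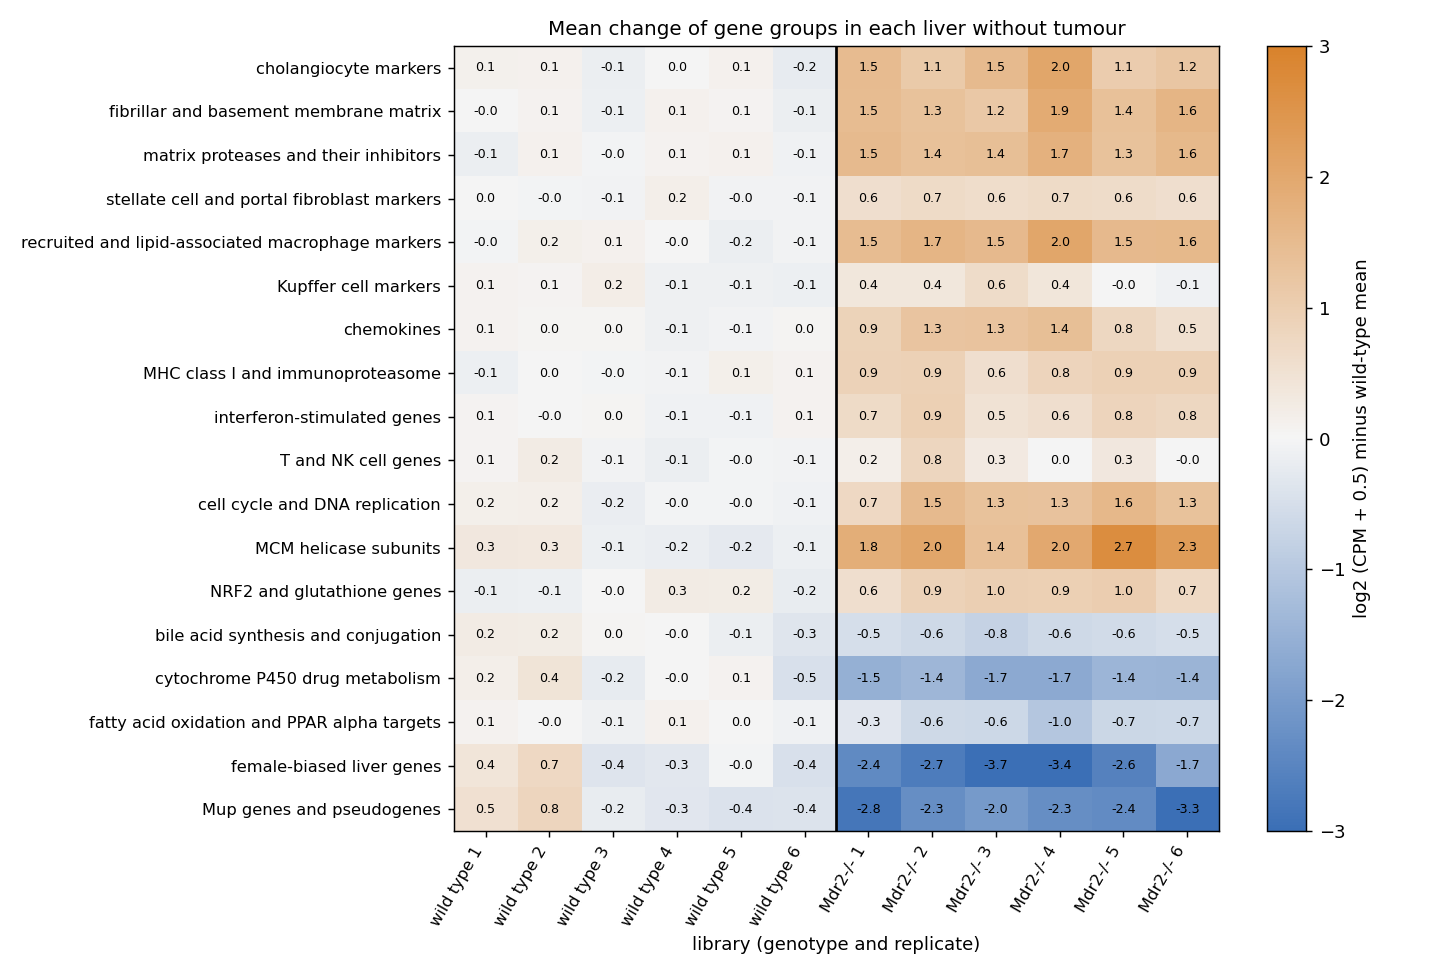
Mean change of 18 gene groups in each of the 12 control livers: for every gene the log2 of CPM + 0.5 minus its mean over the 6 wild-type livers, averaged over the tested genes of the group. Orange squares are above and blue squares below the wild-type mean. The 6 Mdr2-/- livers lie between 1.05 and 2.04 for cholangiocyte markers and between -3.74 and -1.69 for female-biased genes, while Kupffer cell markers lie between -0.07 and 0.64.

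The acute phase response, by which the liver changes its secreted proteins in inflammation, was called in both directions, 10 up and 7 down of 22 tested. With total counts 11 were up and 3 down, and on the TPM 11 and 2. Lcn2, a siderophore-binding protein that injured epithelium also makes, rose from 8.45 to 19.8 CPM (median 12) to 159.7 to 594 CPM (median 218) (4.36 ± 0.46, edgeR adjusted p = 6.46e-08). Hp, haptoglobin, rose from 569 to 1075 CPM (median 871) to 3619.9 to 5232 CPM (median 4862) (2.43 ± 0.17, adjusted p = 1.19e-10), and Saa1, serum amyloid A, from 4.88 to 10.7 CPM (median 8.67) to 16 to 125 CPM (median 33.9) (2.48 ± 0.40, adjusted p = 2.4e-05). The groups were apart for all 3. Apcs, serum amyloid P and a major acute phase protein of the mouse, went the other way, from 194 to 367 CPM (median 221) to 93.1 to 157 CPM (median 108) (-1.09 ± 0.20, edgeR adjusted p = 0.000116), also without overlap. Of 25 genes for other secreted proteins and lineage factors of hepatocytes, 3 rose and 13 fell, a balance that turned on the authors' TPM, where 8 rose and 5 fell. Fabp1, the fatty acid carrier of the hepatocyte, fell from 1714 to 2869.7 CPM (median 2602) to 414 to 718 CPM (median 632) (-2.04 ± 0.21, edgeR adjusted p = 5.87e-08). Hnf4a, the transcription factor that maintains hepatocyte identity, was at 202 to 642 CPM (median 374) in wild type and 379.7 to 689 CPM (median 533) in Mdr2-/- (0.46 ± 0.25, adjusted p = 0.13). Without wild-type replicate 5 the call for Hnf4a was made (0.67, adjusted p = 0.0279).

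Cell cycle genes were higher in Mdr2-/- livers. Of 30 tested genes, 27 rose and 1 fell, with a median of 1.76. Mki67, a protein of dividing cells, rose from 5 to 7.28 CPM (median 6.3) to 8.86 to 23.7 CPM (median 18.5) (1.49 ± 0.30, edgeR adjusted p = 0.000315), and Cdk1, the kinase that starts mitosis, from 0.947 to 1.86 CPM (median 1.23) to 4.8 to 8.16 CPM (median 7.34) (2.36 ± 0.31, adjusted p = 1.39e-06). Ccnd1, cyclin D1, which takes cells out of rest, rose from 80.9 to 155 CPM (median 97) to 182 to 444 CPM (median 313) (1.57 ± 0.21, adjusted p = 2.25e-06). E2f8, a repressor of E2F targets that helps hepatocytes become polyploid, was the gene that fell, from 18.4 to 34 CPM (median 26.7) to 6.78 to 12.5 CPM (median 8.08) (-1.61 ± 0.21, adjusted p = 1.97e-06). All 6 subunits of the MCM helicase, which unwinds DNA at replication origins, rose, by 1.24 (Mcm7) to 3.46 (Mcm6). Mcm6 went from 1.64 to 4.98 CPM (median 2.12) to 16.5 to 41.8 CPM (median 30.9) (3.46 ± 0.30, edgeR adjusted p = 2.09e-09) and Mcm5 from 2.35 to 5.43 CPM (median 2.84) to 17.2 to 32.9 CPM (median 24.4) (2.82 ± 0.25, adjusted p = 3.79e-09). The groups were apart for each of the 6 subunits.

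MCM genes are textbook targets of E2F factors, and their promoters were searched for TTTCCCGC or TTTGGCGC on either strand, a pair of sequences of which neither overlaps the other in the promoters printed here. A match was found for 4 of the 5 MCM genes with a promoter in the table (Mcm3, Mcm5, Mcm6 and Mcm7), the same 4 being the only matches among 24 genes of the cell cycle list (16.7%), and for 3.12% of the 11969 tested genes with a promoter (1.56% of all promoters). The 250 bases before the start of the pair with the largest rise are given 5′ to 3′, with matches in capitals: Mcm5 on the + strand (chr8:75109259-75109508) and Mcm6 on the - strand (chr1:128359706-128359955), from RefSeq GRCm38.p6.
Mcm5: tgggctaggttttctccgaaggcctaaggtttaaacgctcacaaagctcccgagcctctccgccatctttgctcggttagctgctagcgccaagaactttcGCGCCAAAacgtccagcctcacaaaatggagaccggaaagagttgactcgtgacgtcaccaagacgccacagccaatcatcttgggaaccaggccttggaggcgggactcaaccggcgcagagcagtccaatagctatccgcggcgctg
Mcm6: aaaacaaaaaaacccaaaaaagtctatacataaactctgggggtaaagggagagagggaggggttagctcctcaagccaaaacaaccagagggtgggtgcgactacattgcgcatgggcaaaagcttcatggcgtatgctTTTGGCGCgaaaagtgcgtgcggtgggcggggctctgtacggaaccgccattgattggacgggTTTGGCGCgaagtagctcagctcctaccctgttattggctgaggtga
The match in Mcm5 begins 149 bases before the start, and the 2 in Mcm6 begin 110 and 47 bases before it. As above, the letters alone do not show binding.

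Inhibitors of the cell cycle and targets of p53 were called higher for 11 of 19 and lower for 3. Cdkn1a, the inhibitor p21, rose from 1.36 to 10.5 CPM (median 6.42) to 16.8 to 64 CPM (median 29) (2.39 ± 0.38, edgeR adjusted p = 2.15e-05). Eda2r, a receptor that p53 induces, rose from 1.53 to 4.36 CPM (median 2.53) to 9.19 to 19.4 CPM (median 11.6) (2.30 ± 0.27, adjusted p = 3.57e-07), and Gdf15, a secreted stress signal, from 3.11 to 17.8 CPM (median 7.53) to 17.8 to 51.9 CPM (median 29) (1.91 ± 0.33, adjusted p = 4.75e-05). All 3 were higher in every Mdr2-/- library, so that p21 and the replication genes were high in the same livers. Immediate early and heat shock genes rose for 11 of 19 and fell for 0, whereas genes of the unfolded protein response showed 2 rises and 1 fall among 19, a count that became 2 rises and 3 falls with DESeq2 size factors and 6 rises and 0 falls with total counts.

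Bile acid transporters are described by membrane. Of 11 tested canalicular transporters, 2 rose and 2 fell, Abcb4 among the falls, against 5 rises and 1 fall after scaling to total counts. Abcb11, the bile salt export pump, was at 419.9 to 1003 CPM (median 894) in wild type and 438 to 812 CPM (median 619) in Mdr2-/- (-0.41 ± 0.22, edgeR adjusted p = 0.116). Abcc2, the exporter of bilirubin conjugates, was at 418 to 712 CPM (median 582) and 311 to 623 CPM (median 441) (-0.37 ± 0.21, adjusted p = 0.143). Neither pump passed the test. Abcb11 passed without wild-type replicate 1 (-0.53, adjusted p = 0.0412). Of the transporters that send bile acids back to blood, 3 of 7 rose. Slc51b, the beta chain of the organic solute transporter, rose from 0.855 to 1.88 CPM (median 1.34) to 6.53 to 30.5 CPM (median 14.4) (3.53 ± 0.38, edgeR adjusted p = 9.35e-08), with groups apart. Uptake transporters fell for 6 of 8 and rose for 1. Slc10a1, the sodium-dependent carrier NTCP, fell from 469.7 to 773 CPM (median 603) to 206 to 399 CPM (median 222) (-1.19 ± 0.20, edgeR adjusted p = 4.55e-05), and Slco1a1, an organic anion carrier that is male-biased in mice, from 1725 to 3064 CPM (median 2372) to 497 to 971 CPM (median 746) (-1.72 ± 0.22, adjusted p = 1.13e-06). No library of 1 genotype reached the range of the other for this pair. Slc10a2, the sodium-dependent carrier of duct cells and ileum, was the member that rose, from 18.9 to 53.7 CPM (median 36) to 56.2 to 181 CPM (median 117) (1.61 ± 0.26, adjusted p = 2.83e-05).

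Enzymes of bile acid synthesis were called mostly lower after TMM scaling, and less so on other scales. Of 16 tested enzymes, 10 were called lower and 1 higher, against 4 lower and 2 higher after scaling to total counts and 2 lower and 2 higher on the TPM. Cyp7b1, of the alternative pathway that starts from oxysterols, fell from 51.2 to 186 CPM (median 87.3) to 14.4 to 21.7 CPM (median 17.9) (-2.45 ± 0.24, edgeR adjusted p = 1.75e-08), with groups apart. Cyp8b1, which sets the share of cholic acid, was at 13.1 to 201 CPM (median 107) and 14 to 57.7 CPM (median 37.2) (-1.63 ± 0.41, adjusted p = 0.00197), with overlap. Cyp7a1, the rate-limiting enzyme of the classical pathway, ranged widely in both groups, with 63.6 to 559.8 CPM (median 446) in wild type and 28.3 to 573 CPM (median 283) in Mdr2-/- (-0.38 ± 0.47, edgeR adjusted p = 0.516). Nr0b2, the repressor SHP that bile acids induce through their receptor, was at 9.28 to 55 CPM (median 27.8) and 20 to 47.8 CPM (median 23.6) (-0.11 ± 0.35, adjusted p = 0.811), and neither of these passed. Klb, the co-receptor for the ileal hormone FGF15, fell from 47.5 to 77.2 CPM (median 65.1) to 19.4 to 46.9 CPM (median 27.8) (-1.12 ± 0.20, adjusted p = 7.46e-05). Among 20 genes of phosphatidylcholine synthesis, the lipid that Mdr2 carries, 6 rose and 5 fell, against 11 rises and 2 falls with total counts and 13 and 2 on the TPM. Pcyt1a, the rate-limiting enzyme of the choline pathway, rose from 54.2 to 78.1 CPM (median 65.3) to 79.6 to 136 CPM (median 95.3) (0.68 ± 0.18, adjusted p = 0.00333).

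Genes that differ between the sexes in mouse liver, a pattern set by the pulses of growth hormone, were among those with the largest falls. Of 14 tested female-biased genes, 12 fell and 1 rose, with a median of -2.42. In the 2 wild-type and 2 Mdr2-/- controls with the least skeletal muscle RNA the median was -0.81, and 4 genes were called lower and 2 higher. Sult3a1, a sulfotransferase, fell from 2273 to 4691 CPM (median 2976) to 14.7 to 46.4 CPM (median 36.1) (-6.51 ± 0.62, edgeR adjusted p = 1.43e-08). Cyp3a44, a cytochrome P450, fell from 45.5 to 1271 CPM (median 298) to 2.97 to 7.8 CPM (median 5.11) (-6.60 ± 0.84, adjusted p = 1.97e-06), and Hao2, a peroxisomal hydroxyacid oxidase, from 260.2 to 496 CPM (median 357) to 9.65 to 36.1 CPM (median 22.8) (-3.97 ± 0.39, adjusted p = 1.75e-08). Between the lowest wild-type and the highest Mdr2-/- library there remained a gap for all 3. Ntrk2, a neurotrophin receptor that is female-biased in liver, was the member that rose, from 28.4 to 54.1 CPM (median 40.9) to 91.7 to 174 CPM (median 131) (1.74 ± 0.20, edgeR adjusted p = 2.43e-07). Male-biased genes went both ways, 4 up and 5 down of 11. Cyp2d9, a male-biased P450, rose from 8.76 to 25.6 CPM (median 11.7) to 31.1 to 149 CPM (median 61.2) (2.45 ± 0.41, adjusted p = 4.22e-05). Hsd3b5, a male-biased steroid enzyme, fell from 0.999 to 3.79 CPM (median 2.62) to 0 to 0.234 CPM (median 0.103) (-4.62 ± 0.49, adjusted p = 6.3e-08). Xist was present and Y-linked genes were near 0 in all 12 libraries, but the Xist ranges of the genotypes, 1034 to 2325 CPM in wild type and 548.5 to 805 CPM in Mdr2-/-, did not overlap.

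Major urinary proteins, pheromone carriers made by the liver, fell for 20 of 22 tested genes and pseudogenes and rose for 2. Mup9 fell from 83.6 to 2394 CPM (median 210.4) to 0.738 to 8.11 CPM (median 5.61) (-7.15 ± 0.91, edgeR adjusted p = 2.21e-06), the wild-type libraries being widely spread. Mup20, the male pheromone darcin, rose from 50.1 to 119 CPM (median 64.3) to 195 to 3906 CPM (median 968) (4.34 ± 0.54, adjusted p = 7.89e-07). The groups did not overlap for either gene. These genes, like those of the Cyp3a, Cyp2c and Sult3a families, have near-identical copies between which reads can be split, so the value of a single copy is uncertain. Summed over the 22 Mup genes and pseudogenes, Mup20 included, the level was 3102 to 7120 CPM (median 4421) in wild type. In Mdr2-/- the sum was 409.5 to 6058 CPM (median 1936), so the sums overlapped. Of 13 genes of the growth hormone axis, 5 fell and 1 rose, against 4 falls and 3 rises after scaling to total counts. Ghr, the growth hormone receptor, fell from 831 to 1638 CPM (median 1166) to 420.0 to 585 CPM (median 494) (-1.26 ± 0.19, edgeR adjusted p = 9.42e-06), with groups apart. Socs2, a feedback inhibitor that the hormone induces, fell from 58.1 to 119 CPM (median 94.5) to 13.6 to 63.5 CPM (median 46.8) (-1.10 ± 0.31, adjusted p = 0.00493), and its groups overlapped. The letters TTC, any 3 bases and GAA, to which STAT5 downstream of the hormone binds, were found on either strand in the 300 promoter bases of 4 of 12 genes of this axis (33.3%), of 2 of 11 female-biased genes (18.2%) and of 8.5% of tested genes (8.3% of all promoters).

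**Figure D4:**
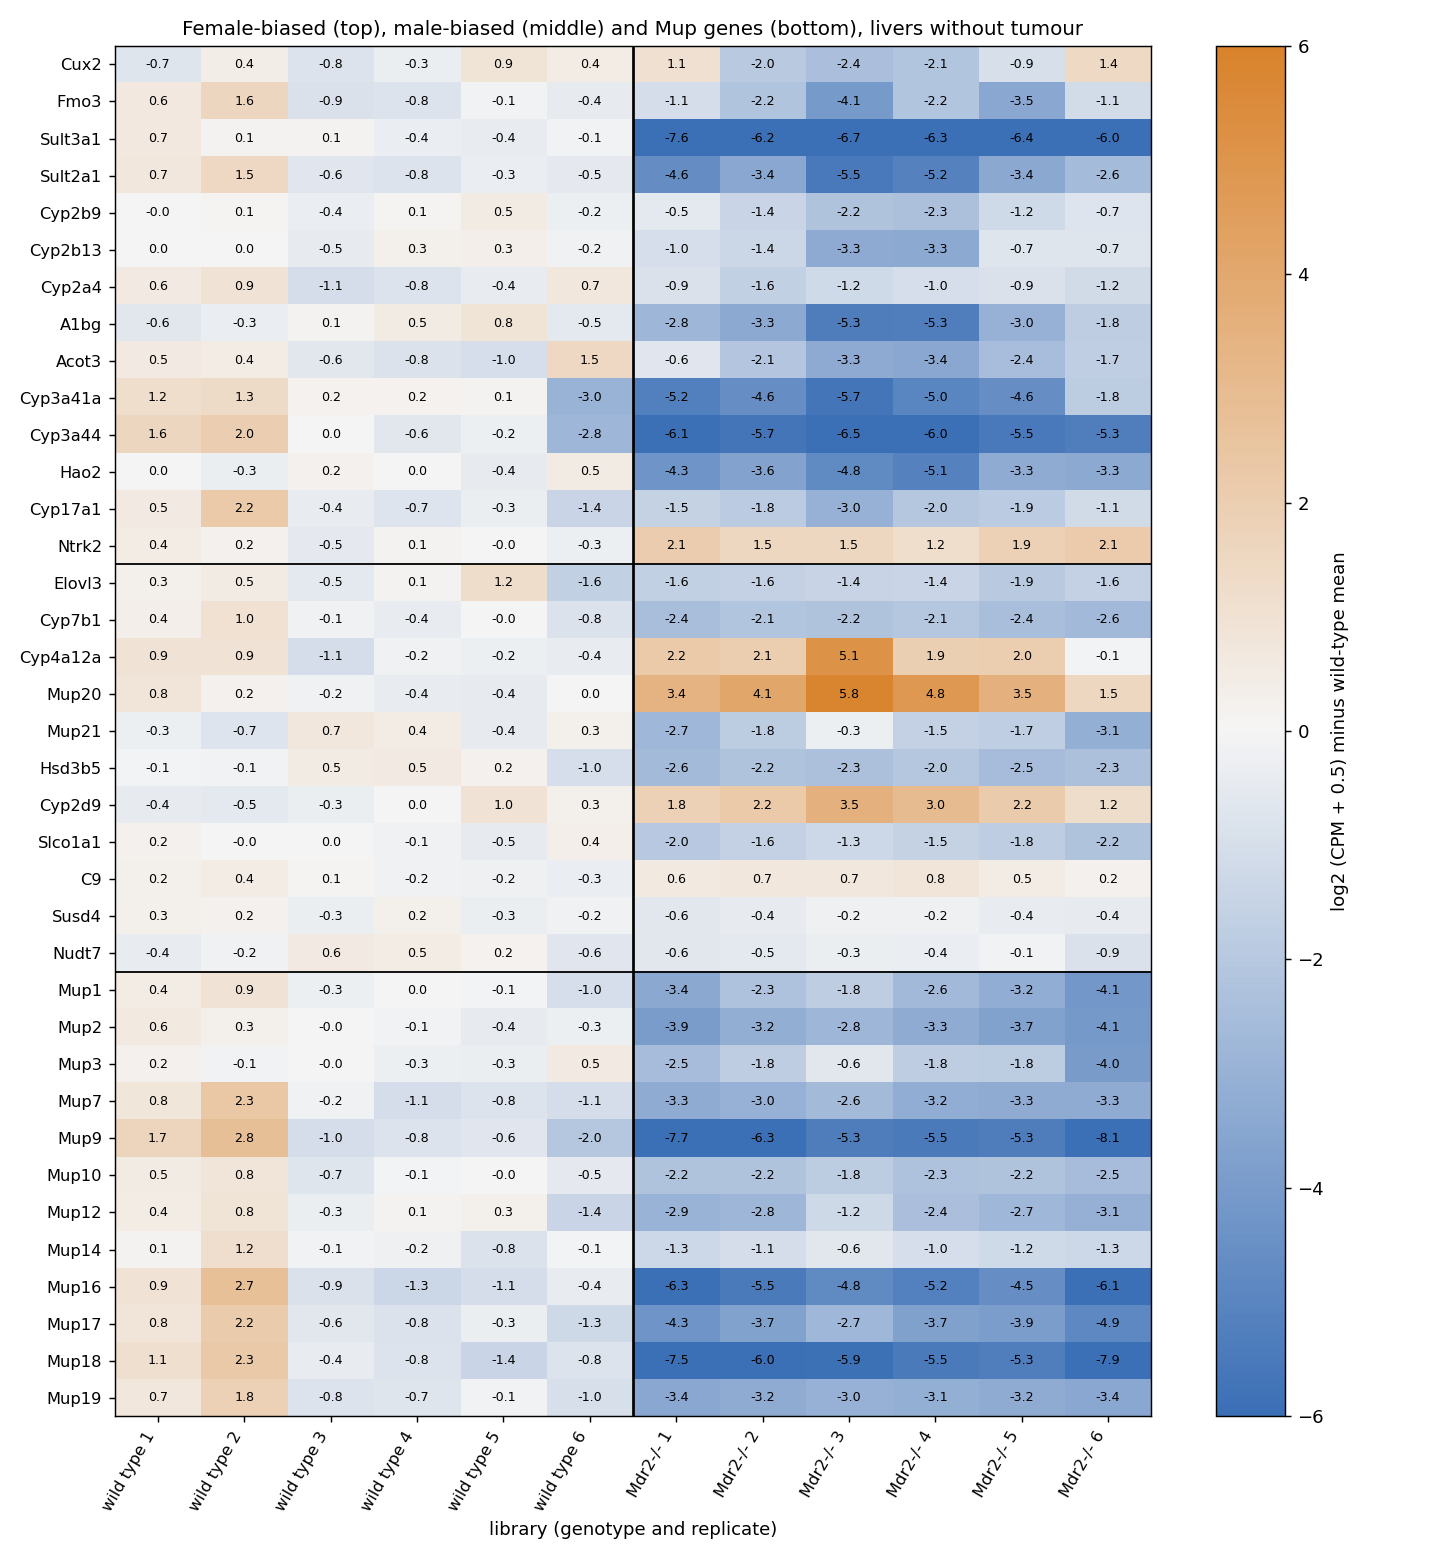
Change of single female-biased, male-biased and Mup genes in the 12 control livers, as log2 of CPM + 0.5 minus the mean of the 6 wild-type livers, 1 column per library. Most female-biased and Mup genes are blue (lower) in all 6 Mdr2-/- livers, while Ntrk2, Cyp2d9, Mup20 and C9 are above 0 in all 6 and Cyp4a12a in 5.

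Metabolic genes of the hepatocyte fell in several further groups. Cytochrome P450 genes of drug metabolism fell for 25 of 37 and rose for 4. Cyp2e1, the ethanol-inducible P450 of the tissue around the central vein, fell from 4351 to 7491 CPM (median 5758) to 1360.5 to 2946 CPM (median 1897) (-1.52 ± 0.20, edgeR adjusted p = 2.03e-06). Conjugating enzymes and aldehyde dehydrogenases fell for 22 of 32 and rose for 4. Among genes of fatty acid oxidation and targets of PPAR alpha, 14 of 24 fell and 1 rose, against 12 falls and 3 rises with total counts and 7 and 3 on the TPM. Cyp4a14, a fatty acid hydroxylase that PPAR alpha induces, fell from 599 to 1245 CPM (median 891) to 24.5 to 68.7 CPM (median 32.6) (-4.54 ± 0.44, edgeR adjusted p = 1.66e-08), and Acot1, a cytosolic thioesterase, from 39.3 to 56.9 CPM (median 47.5) to 2.74 to 10.1 CPM (median 6.45) (-2.94 ± 0.27, adjusted p = 5.75e-09). Both were lower in each Mdr2-/- library than in any wild-type library. The DR1 repeat to which PPAR alpha binds was in 0 of the 18 promoters of this group that the table holds and in 0.301% of those of tested genes (0.381% of all). At so low a share, 18 promoters are too few to show whether the group differs from other genes. Cpt1a, which admits fatty acids to mitochondria, was at 234 to 322 CPM (median 267) in wild type and 178 to 431 CPM (median 241) in Mdr2-/- (0.01 ± 0.20, adjusted p = 0.984). Lpl, lipoprotein lipase, which is low in healthy adult liver, rose from 13.9 to 23.7 CPM (median 17.7) to 82.9 to 158 CPM (median 115) (2.72 ± 0.18, adjusted p = 3.56e-11).

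All 13 protein-coding genes of mitochondrial DNA that were tested fell, with a median of -1.07. Nuclear genes of the respiratory chain fell for 13 of 38 and rose for 1 after TMM scaling, but after scaling to total counts 9 rose and 6 fell, so their direction rests on the scaling. Lipogenesis and cholesterol synthesis had calls on both sides, 4 up and 6 down of 24 and 4 up and 5 down of 28, and on the authors' TPM 9 and 11 rose while 0 and 3 fell. Cyp51, an enzyme of cholesterol synthesis, fell from 134 to 340.2 CPM (median 234) to 71.4 to 120.3 CPM (median 106) (-1.21 ± 0.23, edgeR adjusted p = 0.000123), without overlap. Of 13 genes of the urea cycle and ammonia handling, 2 rose and 2 fell, against 6 rises and 2 falls with total counts. Arg1, arginase, fell from 1559 to 4133 CPM (median 2898) to 806 to 1499.7 CPM (median 1140.2) (-1.32 ± 0.30, adjusted p = 0.000781), with groups apart. Of 19 genes that Wnt maintains around the central vein, 6 fell and 2 rose, against 3 falls and 7 rises after scaling to total counts. Lgr5, a receptor for R-spondins, which strengthen Wnt signals, fell from 7.56 to 11.4 CPM (median 8.54) to 1.52 to 4.64 CPM (median 2.56) (-1.71 ± 0.22, edgeR adjusted p = 1.26e-06). By contrast, Glul, glutamine synthetase, was at 369 to 792 CPM (median 499.9) and 268 to 718 CPM (median 451) (-0.13 ± 0.26, edgeR adjusted p = 0.701). Glycolytic genes rose for 8 of 20, with 0 falls, and for 16 with total counts.

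Genes of glutathione metabolism and targets of NRF2, the sensor of oxidants and electrophiles, rose for 16 of 23 and fell for 3. Gstm3, a glutathione transferase, rose from 33 to 88.9 CPM (median 44.3) to 252 to 1178 CPM (median 609) (3.60 ± 0.46, edgeR adjusted p = 1.31e-06), and Gsta1 from 0.0548 to 0.183 CPM (median 0.15) to 0.6 to 4.22 CPM (median 3.05) (4.28 ± 0.55, adjusted p = 1.27e-06), both with groups apart. Both belong to families of similar genes, so reads may be split between copies. Nqo1, the quinone reductase most often read as an NRF2 target, was at 17.1 to 21.2 CPM (median 18.8) and 13.1 to 28.6 CPM (median 22) (0.20 ± 0.19, adjusted p = 0.378) and did not pass. S100 proteins and annexins rose for 12 of 15 and fell for 1. Anxa5, a protein that binds exposed phosphatidylserine, rose from 18.8 to 32 CPM (median 24.9) to 149 to 264 CPM (median 211) (3.03 ± 0.24, edgeR adjusted p = 5.24e-10).

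Endothelial genes were counted by type of vessel, and most members of either list were not called (12 of 18 sinusoidal and 13 of 21 others). Markers of the sinusoidal endothelium fell for 6 of 18 and rose for 0, against 4 falls and 3 rises after scaling to total counts. Mrc1, the mannose receptor that sinusoidal cells share with macrophages, fell from 121 to 250.0 CPM (median 178) to 73.6 to 93.8 CPM (median 87.1) (-1.06 ± 0.18, edgeR adjusted p = 4.01e-05). Genes of larger vessels and of capillarised endothelium rose for 8 of 21, with 0 falls. Icam1, an adhesion molecule for leukocytes on inflamed vessels, rose from 7.86 to 12.7 CPM (median 10.8) to 31.8 to 48.2 CPM (median 37.3) (1.85 ± 0.19, adjusted p = 3.24e-08). Of 15 oncofetal and hepatoblast genes, 4 rose and 2 fell. Ly6d, a surface protein, rose from 4.82 to 10.4 CPM (median 6.06) to 49 to 179.9 CPM (median 125) (4.20 ± 0.33, edgeR adjusted p = 5.9e-10). Afp, the fetal serum protein used as a marker of hepatocellular cancer, was at 11.2 to 15 CPM (median 14.4) in wild type and 5.14 to 8.96 CPM (median 6.96) in Mdr2-/- (-0.99 ± 0.80, adjusted p = 0.314). Its control groups did not overlap, Mdr2-/- being lower, but it did not pass in the model of all 24 libraries, and it passed in a fit of the 12 controls (adjusted p = 9.79e-05).

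Among all genes, the largest rises with complete separation included several that none of the lists held. Sprr1a, a protein of the cornified envelope of squamous epithelium, rose from 0.274 to 0.468 CPM (median 0.366) to 4.2 to 19.5 CPM (median 16.2) (5.30 ± 0.48, edgeR adjusted p = 5.29e-09). Slpi, an inhibitor of leukocyte proteases, rose from 4.44 to 6.85 CPM (median 5.63) to 138 to 267 CPM (median 186) (5.09 ± 0.29, adjusted p = 4.59e-12), and Ubd, a ubiquitin-like protein that inflammatory cytokines induce, from 1.06 to 1.86 CPM (median 1.45) to 23.4 to 69.1 CPM (median 48) (5.02 ± 0.37, adjusted p = 1.87e-10). Tinag, a basement membrane protein best known from kidney tubules, rose from 0.0909 to 0.493 CPM (median 0.342) to 7.31 to 13.8 CPM (median 9.6) (4.93 ± 0.27, adjusted p = 2.77e-12). Smpd3, a neutral sphingomyelinase, rose from 1.11 to 2.01 CPM (median 1.62) to 28.8 to 68.9 CPM (median 42.4) (4.78 ± 0.34, adjusted p = 1.64e-10). Kidney markers on the list were too low to be tested (0 of 6). Among the falls outside the sex-biased and Mup genes, Dct, dopachrome tautomerase of pigment cells, fell from 11.4 to 42.5 CPM (median 21.9) to 0.316 to 1.77 CPM (median 0.92) (-4.71 ± 0.44, edgeR adjusted p = 7.33e-09). Leap2, a liver peptide that blocks the ghrelin receptor, fell from 43.1 to 157 CPM (median 98.4) to 4.69 to 15.1 CPM (median 8.38) (-3.56 ± 0.42, adjusted p = 3.71e-07).

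The same genotype comparison was made in tumour-bearing livers, which share no library with the controls. There 1917 genes were called (11.1% of those tested), and 1213 were called in both, which is 14.0% of the calls in controls and 63.3% of the calls in tumour-bearing livers, with 1129 in the same direction (6.56% of genes tested) and 84 in opposite directions (0.488%). The median size of the log2 fold change was 0.517 in controls and 0.242 in tumour-bearing livers. The difference of the genotype effect was called for 4355 genes (25.3%), 2313 higher and 2042 lower in controls. In CCA.Wild-type replicate 6 and CCA.Mdr2-/- replicate 1 the median correlation of log2 CPM with the other libraries of the group was lowest (0.959 and 0.966, against 0.966 to 0.979 and 0.973 to 0.977). Without this pair the difference was called for 2928 genes, 1581 higher and 1347 lower in controls. Abcb4 itself differed by -2.91 ± 0.23 in tumour-bearing livers and Abcb1b by 4.33 ± 0.29, and for neither was the difference from controls called (-0.22 ± 0.30, edgeR adjusted p = 0.622, and -0.06 ± 0.39, adjusted p = 0.932).

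Genes of ducts, scar, replication and sex bias were set side by side in the 2 settings. Krt19 was 1.74 ± 0.52 higher in Mdr2-/- than in wild-type tumour-bearing livers and Epcam 2.37 ± 0.41, with differences from controls of 0.55 ± 0.77 (edgeR adjusted p = 0.625) and 0.13 ± 0.58 (adjusted p = 0.89) that were not called. Of the cholangiocyte markers, 17 of 30 were called higher (7.13% of all genes) and 1 lower in tumour-bearing livers, and the difference was called for 6. Col1a1 was at 0.69 ± 0.35 there, and its difference of 2.87 ± 0.50 was called (edgeR adjusted p = 0.00041). Of the matrix genes, 17 of 38 were called higher and 1 lower in tumour-bearing livers, and the difference was called for 14 genes with the higher effect in controls and for 1 with the lower. For Mcm6 the genotype effect was -0.16 ± 0.26 in tumour-bearing livers (difference 3.62 ± 0.39, edgeR adjusted p = 1.29e-06), and the difference was called for 6 of the 6 MCM genes. Cyp3a44 was -0.14 ± 0.66 in tumour-bearing livers against -6.60 ± 0.84 in controls, a difference of -6.46 ± 1.02 (adjusted p = 0.0002). Mup20 was 0.41 ± 0.47 against 4.34 ± 0.54, a difference of 3.93 ± 0.69 (adjusted p = 0.000407). Tinag was 0.09 ± 0.20 there against 4.93 ± 0.27 in controls (difference 4.84 ± 0.34, adjusted p = 7.85e-10), and Sprr1a was 0.70 ± 0.38 against 5.30 ± 0.48 (difference 4.61 ± 0.60, adjusted p = 1.36e-05). Afp went the other way, with 3.32 ± 0.85 in tumour-bearing livers and a difference of -4.30 ± 1.15 (adjusted p = 0.011). The call for Afp was lost with limma voom, on the TPM and with the range of title numbers as a covariate (-2.74, adjusted p = 0.129). The tumour content of these pieces was not measured, and its part in these differences was not tested.

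**Figure D5:**
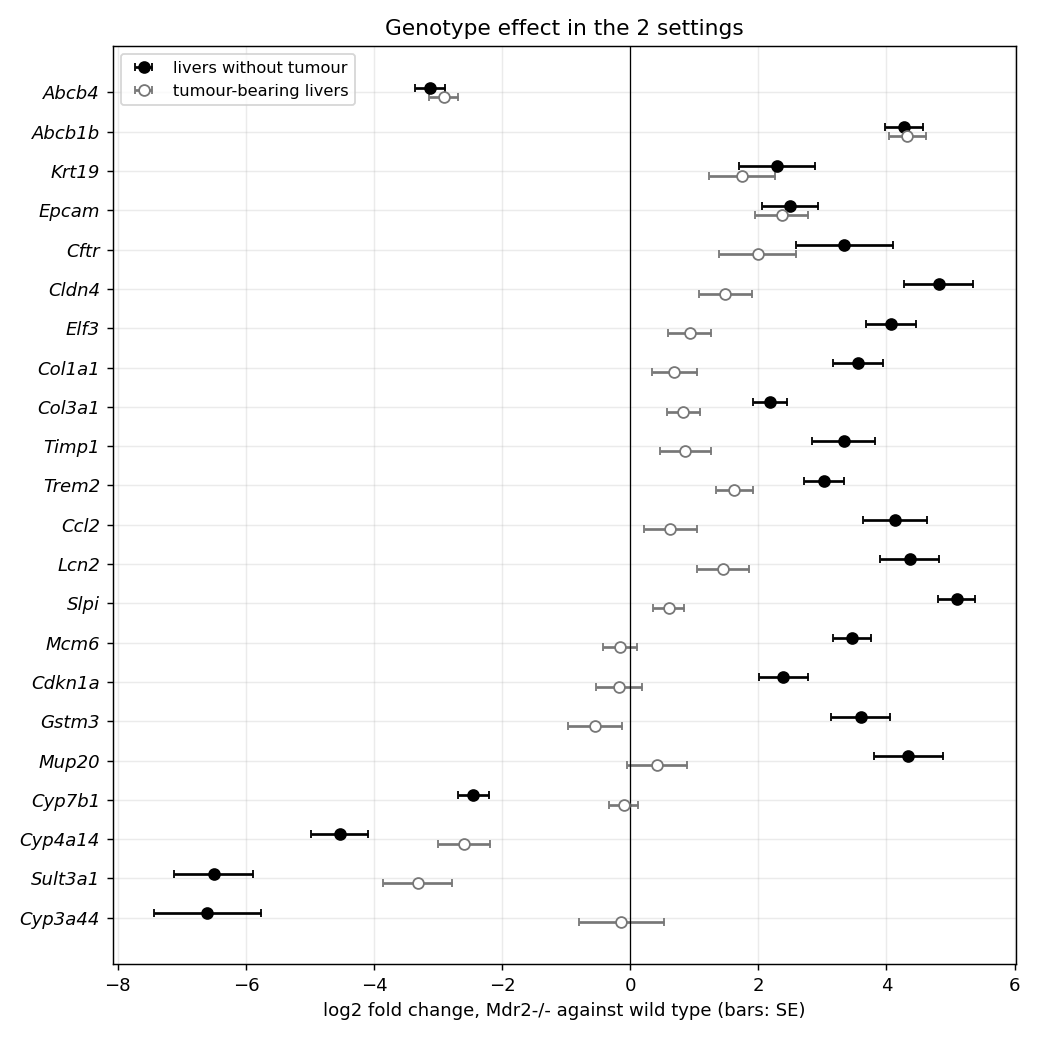
Genotype effect, Mdr2-/- against wild type, in control livers (filled) and in tumour-bearing livers (open) for 22 named genes, as log2 fold change with its standard error from the edgeR model. Abcb4, Abcb1b, Krt19 and Epcam have nearby points in both settings, while Mcm6, Col1a1, Ccl2, Slpi, Mup20 and Cyp3a44 lie near 0 in tumour-bearing livers or closer to it than in controls.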

How the data were processed

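RNA of 24 mouse liver samples was sequenced as total RNA in paired-end mode after removal of ribosomal RNA with a kit that is sold for bacteria, per the labels' protocols. The authors deposited whole-number counts for 49315 genes and TPM (scaled for gene length). The submitters' processing notes name the build mm39 and DESeq2. No aligner, counter or annotation is given in the sources used here. Whether counting used strand is unknown, so reads of overlapping and antisense genes cannot be told apart. The 174 genes without a symbol were kept under their ID.

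Counts of all 24 libraries were fitted with 1 mean per group by edgeR 4.0.16 in R 4.3.3 (filterByExpr with a minimum count of 10, TMM, robust quasi-likelihood F test, Benjamini-Hochberg adjustment over 17216 genes, threshold 0.05). The SE is the log2 fold change divided by the square root of F. The biological coefficient of variation was 0.272. Shares of counts were compared by 2-sided exact permutation tests, whose smallest p for 6 against 6 is 0.00216 (scipy 1.17.1). No 2 control libraries of a group agreed within sampling noise (chi-square per gene of 29.4 to 209.6). The edgeR step was tested on simulated data for the control comparison with 16653 genes: it called 66 of 100 genes with a simulated 2-fold change and 89 of 100 with a 4-fold one, with 8 false calls. All other genes were simulated without a change. The simulation therefore could not test the scaling when a large share of genes change, and its false calls do not carry over to the real comparison. Alternatives were other scaling factors, filters of low counts, DESeq2 1.42.0, limma 3.58.1 with voom or on log2(TPM + 1) and log2(TPM + 0.1), other sets of libraries, covariates, and each control library left out. Members and lists were chosen with earlier results of these data known. Named genes were Abcb4, the largest changes with complete separation and at least 5 CPM, key and leading members of each list, and the largest differences between settings; not all are printed, and 1 result is not reported here. Overlap means that the range of 1 genotype reached into that of the other.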

Additional observations from a re-analysis of the deposited data

Results flagged for a closer look

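For each named gene the 6 control libraries of each genotype were checked for one that lay far from the other 5, that is, with a gap to the nearest of more than 0.625 of the range. This was so in 25 of 250 groups. The limit gives about 1 in 20 for independent values with a normal spread. CPM of genes that vary together need not follow that, so the count is not a measure of excess over chance. Of the 25 libraries, 16 were the same one, Mdr2-/- replicate 4, each time as the highest of its group. Among duct genes, Cftr, Cldn4, Krt7 and Itgb6 stood at 11.5, 10.2, 8.88 and 7.65 CPM in that library. Among genes of matrix and its regulation, Col3a1, Timp1, Tgfb2 and Spp1 stood at 484, 8.72, 16.2 and 251 CPM in that library. Among macrophage and chemokine genes, Ccl2, Ccl20, Ccr2, Ms4a7 and Trem2 stood at 37.3, 13.2, 31.8, 11.2 and 9.99 CPM in that library. Among acute phase genes, Apcs, Lcn2 and Saa1 stood at 157, 594 and 125 CPM in that library. Its total of 28481670 counts lay within the range of the group, and its skeletal muscle genes summed to 287 CPM. Without it 8436 genes were called in controls, and none of the named genes lost its call. 

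The other 9 were spread over 6 libraries. In Mdr2-/- replicate 3, Abcb1b (46.9 CPM), E2f8 (12.5 CPM) and C6 (411 CPM) were high, and in replicate 2 Irf7 (34.7 CPM) and Nr0b2 (47.8 CPM). Cyp4a14 was high in replicate 5 (68.7 CPM) and Sprr1a low in replicate 1 (4.2 CPM). Among wild-type livers, Apcs was high in replicate 3 (367 CPM) and Afp low in replicate 6 (11.2 CPM). 

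Of 25 genes whose genotype effect was compared between control and tumour-bearing livers, the effects differed for 20 by the edgeR test of the difference. Among duct and matrix genes the log2 effect in controls exceeded that in tumour-bearing livers for Cldn4, Elf3, Col1a1, Col3a1 and Timp1, by 3.33, 3.14, 2.87, 1.35 and 2.47. Among inflammatory and cell cycle genes the excess was 1.40, 3.50, 2.91, 4.49, 2.57 and 3.62 for Trem2, Ccl2, Lcn2, Slpi, Cdkn1a and Mcm6. For Gstm3, Mup20, Tinag and Sprr1a it was 4.14, 3.93, 4.84 and 4.61. The effect was lower in controls for Cyp7b1, Cyp4a14, Sult3a1, Cyp3a44 and Afp, with differences of -2.35, -1.95, -3.19, -6.46 and -4.30. Besides Afp, some of these calls depended on the setting. Timp1 and Trem2 lost theirs with limma on log2(TPM + 1) (adjusted p = 0.0916 and 0.181), and Cyp4a14 without the low-count filter (edgeR adjusted p = 0.0516). Col3a1, Ccl2 and Sult3a1 lost theirs with only the controls under 10 CPM of skeletal muscle RNA. Tumour and oncogenes came together in the tumour-bearing livers, and their parts in the differences cannot be told apart.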

How the results depend on the processing

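No paired analysis was possible because the labels carry no replicate numbers that the genotypes share. Of the 104 named genes called in controls, 104 kept their call without each of the 12 control libraries in turn. Under every setting that tested them, 81 kept it, and no direction was reversed. A gene that a setting did not test was not counted as lost there. The stricter low-count filter tested 99 of the 104, and the fit of the 12 controls 103. Of 20 called differences between control and tumour-bearing livers, 20 and 13 were kept by the same rules, with 19 tested by DESeq2. Leaving out 1 library gave 7712 to 9241 called genes, 4142 to 5028 of them higher and 3560 to 4213 lower, and for the difference 3457 (without wild-type replicate 6) to 5437 (without wild-type replicate 5), 1953 to 3083 higher and 1497 to 2354 lower. It moved the difference in share (Mdr2-/- minus wild type) from -3.55 to -2.90 percentage points for mitochondrial genes and from -3.11 to -2.82 for the 10 most abundant genes. The split into rises and falls moved most. Scaling to total counts called 7247 genes higher and 2325 lower, limma on log2(TPM + 1) 8121 and 1589, and on log2(TPM + 0.1) 8403 and 1668. These 3 settings change the assumption on what stays constant. For the difference, the TPM fits called 1320 and 1314 genes lower, and leaving out the 2 tumour-bearing libraries least like their groups 1347. The share of rises among called differences was 53.1%, and 42.5% with upper-quartile factors and 64.1% on log2(TPM + 0.1).

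The fit of the 4 controls with under 10 CPM of skeletal muscle RNA (2 against 2) was chosen after seeing the data. All 12 tumour-bearing libraries stayed in the fit, whatever their muscle RNA (1.165 to 369.1 CPM). The fit called 4205 genes, 2255 higher and 1950 lower, and for the difference 2051, 1288 higher and 763 lower. Fewer control libraries enter it. It called 10 of 30 cholangiocyte markers (median 1.74), 22 of 38 matrix genes (1.85) and 14 of 30 cell cycle genes higher (1.58). List medians moved from 0.60 to 0.02 for neutrophil markers, from 0.30 to 0.08 for Kupffer cell markers (1 up and 1 down) and from -0.26 to 0.19 for the growth hormone axis. Of the 104 named genes, 22 lost their call: Apob, Arg1, C8a, Ccl20, Cd8a, Cftr, Ctgf, Cyp2d9, Epcam, Ghr, Igha, Klb, Krt19, Krt7, Mki67, Saa1, Slc10a1, Slc10a2, Slc40a1, Socs2, Sox9 and Tgfb2. With muscle RNA as a covariate the count was 8546. Other counts of called genes in controls ran from 6314 (libraries with a title number below 2000, 4 against 5) to 10071 (log2(TPM + 0.1)). Apob, Cyp8b1, Krt7 and Socs2 lost their call on the TPM (log2(TPM + 1), adjusted p = 0.161, 0.0799, 0.0616 and 0.0541). Abcb1a, Aqp1, Hnf4a, C3, Nqo1 and S100a8 gained one on the total counts (adjusted p = 0.00243, 0.0113, 0.0124, 0.0142, 0.0173 and 0.0249) and on the TPM, and Abcb1a and Hnf4a also with limma voom (adjusted p = 0.00485 and 0.0493). Depth limits the low genes: 1 CPM is 16.4 to 29.96 counts, so that a gene at 0.1 CPM rests on few reads.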

Other observations

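Complement and coagulation proteins, most of which hepatocytes secrete into plasma, were called higher for 7 of 28 tested genes and lower for 5. C6, a subunit of the membrane attack complex, rose from 21.7 to 30.9 CPM (median 25) to 211 to 411 CPM (median 229) (3.33 ± 0.27, edgeR adjusted p = 1e-09), and C8a, another subunit of that complex, from 145 to 233 CPM (median 204) to 383 to 809 CPM (median 476) (1.49 ± 0.20, adjusted p = 2.64e-06). C8g, the third chain of the C8 component, fell from 377 to 647 CPM (median 540.1) to 174 to 349 CPM (median 252) (-1.004 ± 0.22, adjusted p = 0.000643). The groups did not overlap for these genes, so members of 1 complex moved in opposite directions. C6 is also counted among the Kupffer cell markers above. C1qa, a chain of the recognition molecule C1q that macrophages make, rose from 26.2 to 36.2 CPM (median 33) to 60.9 to 103 CPM (median 89.4) (1.37 ± 0.17, adjusted p = 6.32e-07). C3, the central component, was at 9529 to 17622 CPM (median 13190.3) in wild type and 12674 to 20874 CPM (median 14473) in Mdr2-/- (0.25 ± 0.20, adjusted p = 0.309) and did not pass. On the authors' TPM the count was 13 up and 2 down.

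Apolipoproteins fell for 8 of 16 and rose for 1, against 4 falls and 5 rises after scaling to total counts. Apob, the structural protein of the lipoproteins that carry triglyceride out of the liver, fell from 22494 to 27513 CPM (median 24099.8) to 12326 to 17123 CPM (median 14307) (-0.75 ± 0.19, edgeR adjusted p = 0.00217), with groups apart. Of 13 genes of metal binding and iron, 5 rose and 1 fell. Trf, transferrin, the iron carrier of plasma, rose from 3414 to 5911 CPM (median 4773) to 7267 to 10273 CPM (median 8242) (0.84 ± 0.15, adjusted p = 0.000109). The member that fell was Slc40a1, ferroportin, the exporter of iron, from 577 to 820.4 CPM (median 615) to 279 to 464 CPM (median 369) (-0.86 ± 0.16, adjusted p = 0.000167). Neither of this pair had overlapping groups. Of 11 genes that sense bile acids or act in their feedback, 4 fell and 1 rose, against 2 falls and 3 rises after scaling to total counts or on the TPM. The one that rose after TMM scaling was S1pr2, a receptor that conjugated bile acids activate, from 4.7 to 6.33 CPM (median 5.75) to 13.3 to 21.3 CPM (median 18.2) (1.67 ± 0.15, adjusted p = 3.22e-09), with groups apart. Genes of gluconeogenesis and amino acid breakdown gave 1 rise and 2 falls among 17. Genes for cytosolic ribosomal proteins took 1.20 ± 0.207% of the counts in wild type and 1.20 ± 0.292% in Mdr2-/- (SD, n = 6 each, exact permutation p = 0.987), and the 10 most abundant genes 20.9 ± 0.564% and 17.9 ± 0.387% (exact permutation p = 0.00216, adjusted p = 0.00649 over 6 classes).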
